A study of Mus musculus with 24 samples.

Results

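The 9 genes described here encode transcription factors of retinal ganglion cells (RGCs): Pou4f1, Pou4f2, Pou4f3, Isl2, Ebf1, Ebf3, Irx2, Klf7 and Sox4. They were chosen by name, and all 9 were found among the 14922 genes measured at 1 week and the 15920 measured at 5 weeks. The samples were 24 retinas from male C57BL/6J mice, in 4 groups of 6: blast-mediated traumatic brain injury (bTBI) at 1 week, sham at 1 week, bTBI at 5 weeks and sham at 5 weeks. The mice were 13 to 17 weeks old at the time of injury. The bTBI mice received a blast wave of 20 PSI with the left side of the head and the left eye facing it, while sham mice went through the same handling without a blast. The groups differ in no allele, and the earlier timepoint is called 8 days in the sample labels. The labels give RGC as the cell type, but whole retinas were taken, and the rod photoreceptor factor Nrl stood at 1997 ± 131 CPM (counts scaled to library size) in bTBI retinas and 2024 ± 90.5 CPM in sham retinas at 1 week (mean ± SD, n = 6 each). A different RNA kit was used at each timepoint, so that kit and time cannot be told apart in a comparison of levels across timepoints. Comparisons of bTBI with sham were made within a timepoint.

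RGCs are the output neurons of the retina and send their axons through the optic nerve. In the developing mouse retina, factors of the SOXC group prepare progenitors for the RGC fate, Pou4f2 and the LIM-homeodomain factor Isl1 then switch on the RGC program, and further POU4, EBF and LIM-homeodomain factors guide axon growth, survival and the division into RGC types. Several of these factors are kept in adult RGCs, and antibodies to the Pou4f1 protein, BRN3A, are widely used to count RGCs.

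In bTBI retinas the levels of 6 of the 9 factors (Pou4f1, Pou4f2, Pou4f3, Isl2, Ebf1 and Irx2) averaged 57.0% to 72.8% of sham at 1 week and 57.5% to 81.1% of sham at 5 weeks. Pou4f1 passed the test at both timepoints, Ebf1 at 1 week, and Pou4f2 and Pou4f3 at 5 weeks. The other 3 factors, Ebf3, Klf7 and Sox4, averaged 88.3% to 94.2% of sham at 1 week and 89.0% to 97.4% at 5 weeks and passed at neither timepoint. The test was that of limma on log2(CPM + 1), with Benjamini-Hochberg adjustment over all genes of a timepoint, and a gene was called at an adjusted p under 0.005. By this rule 2 of 9 factors were called lower at 1 week, where 0.985% of all genes were, and 3 of 9 at 5 weeks, where 0.823% of all genes were. With an adjusted p under 0.05, 6 of 9 were lower at each timepoint, against 3.06% of all genes at 1 week and 1.93% at 5 weeks. At 1 week 4 of these 6 stayed under 0.05 in every single omission of a retina, all but Pou4f2 and Pou4f3, and 3 of them (Pou4f1, Isl2 and Ebf1) did so without the 2 bTBI retinas richest in lens RNA. At 5 weeks Isl2, Ebf1 and Irx2 did not stay under 0.05 throughout. Over the single omissions their limma adjusted p ran up to 0.0637, 0.110 and 0.0915. In a joint fit of all 24 retinas Ebf1 and Irx2 were above 0.05 at 5 weeks (limma adjusted p = 0.0673 and 0.186). No factor was called higher, which 1.27% of genes were at 1 week and 0.0126% at 5 weeks. Every bTBI retina lay below every sham retina for 3 of 9 factors at each timepoint, against 2.25% of all genes at 1 week and 1.75% at 5 weeks. In whole retinas, fewer RGCs and less RNA per RGC cannot be told apart.

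**Figure D1:**
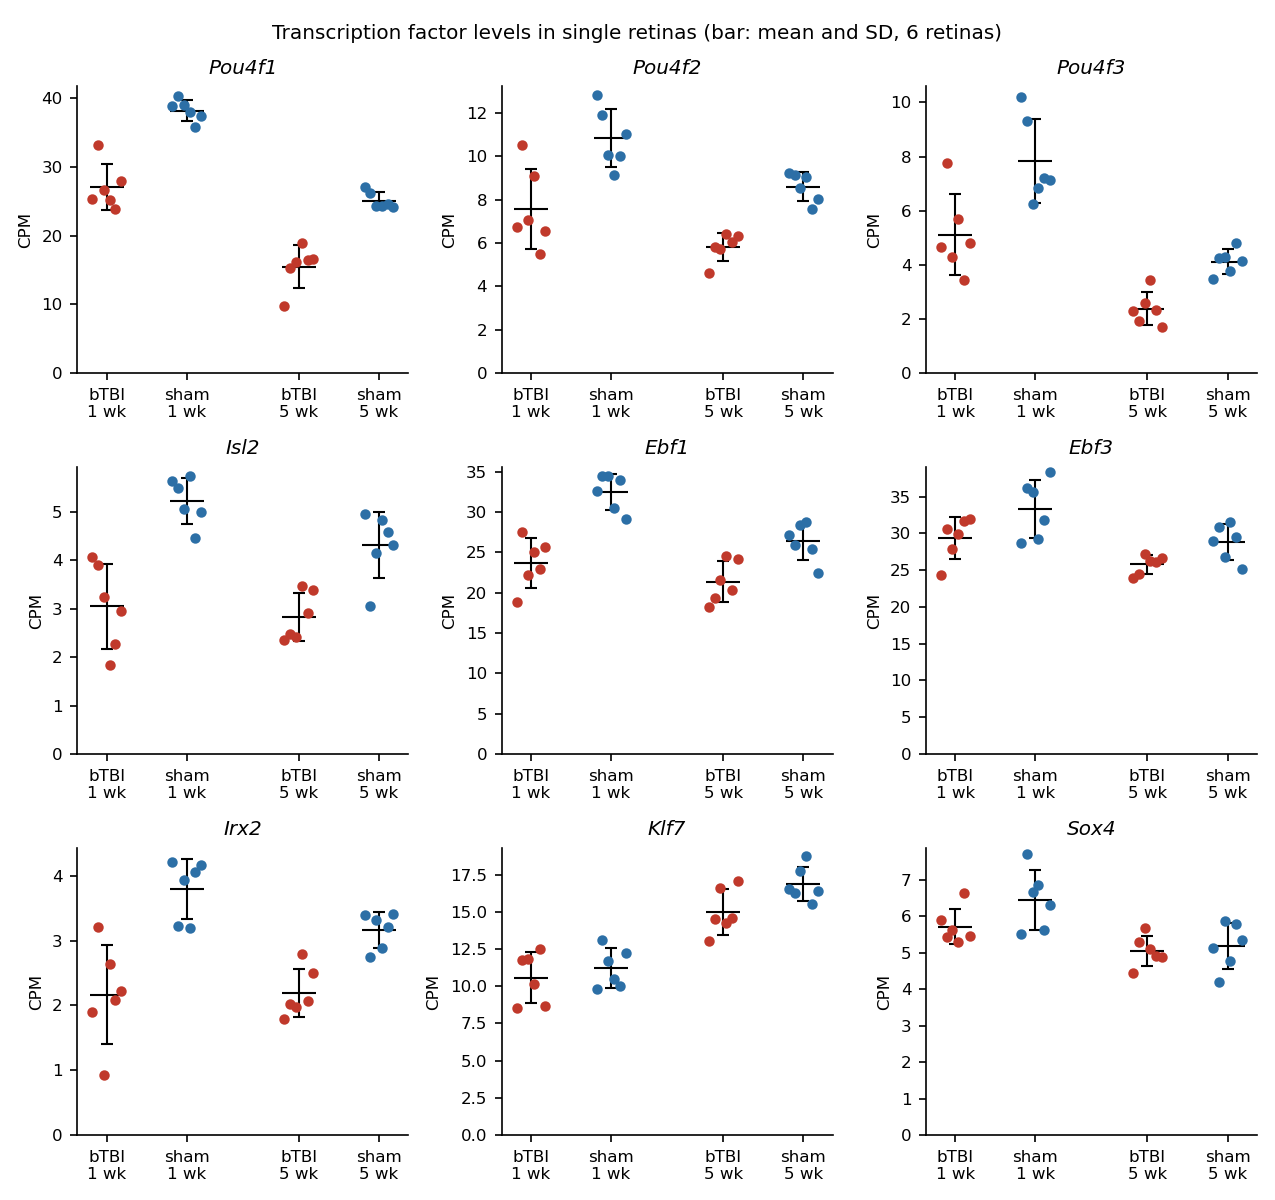
Level of each of the 9 factors in CPM (vertical axis, from 0) in each of 24 retinas, 6 per group, with bTBI in red and sham in blue at 1 week (1 wk) and 5 weeks (5 wk); bars give the mean and SD. The bTBI and sham retinas do not overlap for Pou4f1 at both timepoints, for Isl2 and Ebf1 at 1 week, and for Pou4f2 and Pou4f3 at 5 weeks.

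The 9 genes lie on 8 chromosomes of the GRCm38 build, with Irx2 and Sox4 both on chromosome 13. Pou4f1 (ENSMUSG00000048349.9) spans 104461676 to 104467999 on the minus strand of chromosome 14, and Pou4f2 (ENSMUSG00000031688.4) spans 78433010 to 78436645 on the minus strand of chromosome 8. Isl2 (ENSMUSG00000032318.12) spans 55538672 to 55546180 on the plus strand of chromosome 9, and Ebf1 (ENSMUSG00000057098.14) spans 44617317 to 45008091 on the plus strand of chromosome 11. All 9 are annotated as protein coding. Annotated genes on the opposite strand cover 54.6% of the exon bases of Sox4 (Gm26735), 39.3% of those of Klf7 (Gm26649) and 3.85% of those of Ebf3 (Gm45278). The libraries were stranded, but the strand setting of the counting is not given in the sources used here, and none of these partners is listed in the tables. Reads of each pair could therefore be mixed in Sox4, Klf7 and Ebf3.

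Promoter windows from RefSeq (GRCm38.p6) ran from 250 bases before to 50 bases after the start of the gene. The windows used covered 8 of the 9 factors, all but Pou4f3, since none was taken from its chromosome. They were searched on both strands for short motifs that factors of these families are known to bind: ATAATTAA (POU4), CCCNNGGG (EBF), AACAAAG (SOX) and ACATGT (IRX). The EBF motif was found in the windows of Isl2 and Ebf3, each with 1 match, and in 13.7% of all 32851 windows. No window of the 8 factors held the POU4, SOX or IRX motif, which stood in 1.18%, 5.85% and 5.28% of all windows. The 150 bases before the start are given in lower case, read 5′ to 3′ on the strand of the gene, for Pou4f1 and Pou4f2, which lie at chr14:104468000-104468149 and chr8:78436648-78436797 (both minus strand) and passed the test in bTBI retinas, and for Isl2 and Ebf3, which lie at chr9:55540999-55541148 (plus strand) and chr7:137314446-137314595 (minus strand) and hold the EBF match, in capitals.
Pou4f1: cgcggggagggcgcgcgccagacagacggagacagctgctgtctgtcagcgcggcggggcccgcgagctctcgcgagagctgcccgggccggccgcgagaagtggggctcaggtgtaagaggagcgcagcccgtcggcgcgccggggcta
Pou4f2: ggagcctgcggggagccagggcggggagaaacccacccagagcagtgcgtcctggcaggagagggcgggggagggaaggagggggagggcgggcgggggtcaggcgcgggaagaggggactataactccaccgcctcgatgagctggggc
Isl2: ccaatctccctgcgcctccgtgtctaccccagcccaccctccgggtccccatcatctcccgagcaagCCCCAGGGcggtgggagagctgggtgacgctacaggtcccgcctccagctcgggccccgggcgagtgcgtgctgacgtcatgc
Ebf3: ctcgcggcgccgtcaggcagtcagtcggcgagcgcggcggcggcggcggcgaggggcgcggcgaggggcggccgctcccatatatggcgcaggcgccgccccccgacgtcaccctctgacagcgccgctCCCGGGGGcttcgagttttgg
The match begins 83 bases before the start in Isl2 and 21 bases before it in Ebf3. In GENCODE, Isl2 begins upstream of the RefSeq start used here. A match is a run of letters and not a measured binding site. The guanine and cytosine content of the whole window was 78.3% for Pou4f1, 69.7% for Pou4f2, 67.3% for Isl2 and 77.0% for Ebf3. It was 69.0% for Irx2, 58.3% for Klf7, 52.0% for Sox4, and 36.7% and 53.0% for separate windows of Ebf1. The median over all windows was 52.7%.

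Pou4f1 encodes BRN3A, a POU-homeodomain factor of most RGCs that shapes the dendrites of RGC types in mice. At 1 week its lowest, median and highest levels were 23.9, 26.0 and 33.2 CPM in bTBI retinas, against 35.7, 38.4 and 40.2 CPM in sham retinas. At 5 weeks they were 9.70, 16.3 and 18.9 CPM in bTBI retinas, against 24.2, 24.4 and 27.0 CPM in sham retinas. The groups did not overlap at either timepoint. Pou4f1 fell to 70.8% of the sham mean at 1 week, by 0.49 on the log2 scale (95% interval of the log2 change -0.64 to -0.34, limma adjusted p = 0.000540). At 5 weeks it fell to 61.7% of sham, by 0.69 on the log2 scale (-0.89 to -0.48, limma adjusted p = 0.000275). There it was among the 0.101% of all genes with the lowest log2 fold change. Without any single retina the call held at both timepoints, with adjusted p up to 0.00235 at 1 week and 0.00135 at 5 weeks. It was lost at 5 weeks with a variance prior without trend in limma (adjusted p = 0.00888). The lowest retina of all, bTBI replicate 1 at 5 weeks, rests on 157 reads, and without it the log2 change at 5 weeks was -0.57.

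Pou4f2 encodes BRN3B, which is needed for RGC differentiation and axon growth in mice. Its lowest, median and highest levels at 1 week were 5.49, 6.91 and 10.5 CPM in bTBI retinas, against 9.16, 10.6 and 12.8 CPM in sham retinas, and at 5 weeks 4.63, 5.93 and 6.42 CPM in bTBI retinas, against 7.59, 8.78 and 9.24 CPM in sham retinas. At 1 week 5 of 6 bTBI retinas lay below every sham retina, the exception being bTBI replicate 2, and at 5 weeks the groups did not overlap. The log2 change was -0.48 at 1 week (-0.75 to -0.22, limma adjusted p = 0.0315), which did not pass the threshold of 0.005. At 5 weeks Pou4f2 fell by 0.49 on the log2 scale (-0.66 to -0.32, limma adjusted p = 0.00106), to 67.8% of sham. Leaving out bTBI replicate 2 gave a log2 change of -0.58 at 1 week and an adjusted p of 0.00443, below the threshold. Over all 12 single omissions at 1 week the adjusted p of Pou4f2 ran up to 0.0769 and the log2 change up to -0.41, the value without bTBI replicate 5, and without both bTBI replicates 5 and 6 the log2 change was -0.35 (adjusted p = 0.163). At 5 weeks the call held in every single omission and was lost in a single fit of all 24 retinas (adjusted p = 0.0104).

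Pou4f3 encodes BRN3C, which marks a smaller group of RGCs and is best known for its role in hair cells of the inner ear. At 1 week its lowest, median and highest levels were 3.45, 4.73 and 7.78 CPM in bTBI retinas, against 6.25, 7.16 and 10.2 CPM in sham retinas. The groups overlapped through bTBI replicate 2 alone. At 5 weeks, with 1.69, 2.30 and 3.42 CPM in bTBI retinas against 3.46, 4.20 and 4.80 CPM in sham retinas, they did not overlap, but the highest bTBI retina lay close below the lowest sham retina. The fewest reads behind a value were 27, in bTBI replicate 6 at 5 weeks, whose 1.69 CPM has an exact Poisson interval of 1.11 to 2.46 CPM for counting error alone. The log2 change was -0.55 at 1 week (-0.86 to -0.23, limma adjusted p = 0.0404) and missed the threshold, and at 5 weeks Pou4f3 fell by 0.62 on the log2 scale (-0.85 to -0.39, limma adjusted p = 0.00228), to 57.5% of sham. The 5-week call was lost in 9 of 12 single omissions, without bTBI replicates 1, 2, 5 or 6 or sham replicates 2, 3, 4, 5 or 6, with adjusted p up to 0.00940 and log2 changes of -0.70 to -0.56 over all 12. At 1 week, leaving out bTBI replicate 2 gave an adjusted p of 0.00484. The adjusted p of Pou4f3 at 1 week ran up to 0.0995 over the single omissions and the log2 change up to -0.46, without bTBI replicate 5, and without both bTBI replicates 5 and 6 they were 0.177 and -0.43. The 5-week call was also lost with a prior without trend (adjusted p = 0.00888) and in a single fit of all 24 retinas (adjusted p = 0.0111).

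**Figure D2:**
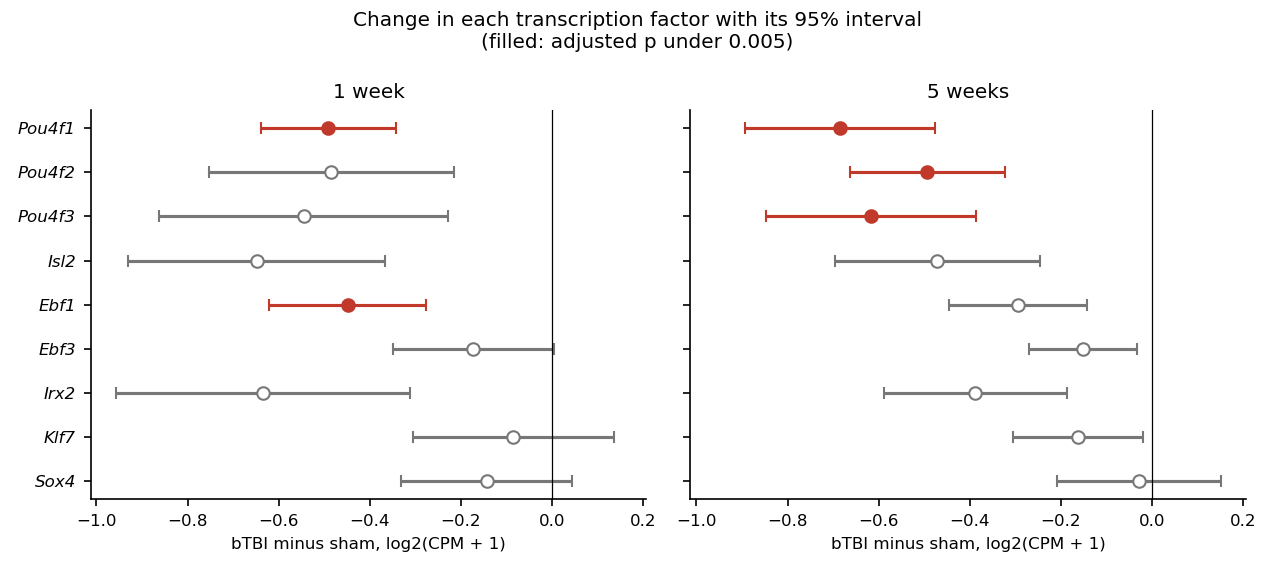
Change of each factor as bTBI minus sham on the log2(CPM + 1) scale (horizontal axis) at 1 week (left) and 5 weeks (right), with 95% intervals from limma, 6 retinas per group; filled red points passed the adjusted p of 0.005. Pou4f1, at -0.49 and -0.69, is the factor that passed at both timepoints, and all 9 points lie left of 0 at both.

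Isl2 is a LIM-homeodomain factor that in mice marks RGCs whose axons cross the midline. It had 1.84, 3.098 and 4.06 CPM as lowest, median and highest levels in bTBI retinas at 1 week, against 4.45, 5.27 and 5.73 CPM in sham retinas, with no overlap. At 5 weeks it had 2.35, 2.69 and 3.47 CPM in bTBI retinas, against 3.06, 4.45 and 4.95 CPM in sham retinas, and 4 of 6 bTBI retinas lay below every sham retina. Its log2 change was -0.65 at 1 week (-0.93 to -0.37), with a limma adjusted p of 0.00705 that missed the threshold, and -0.47 at 5 weeks (-0.70 to -0.25, limma adjusted p = 0.0186). At 1 week the gene passed without bTBI replicate 1 (adjusted p = 0.00389) and without bTBI replicate 2 (adjusted p = 0.00330). Over all 12 single omissions the adjusted p of Isl2 at 1 week ran up to 0.0202 and the log2 change up to -0.55, and without both bTBI replicates 5 and 6 they were 0.0487 and -0.58.

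Ebf1 and Ebf3 belong to the EBF family, which acts downstream of Pou4f2 in RGC development and is also used by other neurons of the inner retina. At 1 week Ebf1 had 18.8, 23.96 and 27.5 CPM as lowest, median and highest levels in bTBI retinas, against 29.1, 33.3 and 34.5 CPM in sham retinas, with no overlap. It fell to 72.8% of sham, by 0.45 on the log2 scale (-0.62 to -0.28, limma adjusted p = 0.00283). This call was lost in 7 of 12 single omissions, without bTBI replicates 3, 4 or 5 or sham replicates 1, 2, 3 or 5, with adjusted p up to 0.00964 and log2 changes of -0.49 to -0.39 over all 12. It was also lost with a prior without trend (adjusted p = 0.00596). At 5 weeks it had 18.2, 21.0 and 24.6 CPM in bTBI retinas, against 22.5, 26.6 and 28.7 CPM in sham retinas. Here 4 of 6 bTBI retinas lay below every sham retina, and the log2 change of -0.29 (-0.44 to -0.14, limma adjusted p = 0.0346) missed the threshold.

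Ebf3 had levels like those of Ebf1 in CPM but a smaller difference between the groups. It ranged over 24.4 to 31.9 CPM in bTBI retinas and 28.7 to 38.3 CPM in sham retinas at 1 week, and over 23.9 to 27.2 CPM in bTBI retinas and 25.1 to 31.5 CPM in sham retinas at 5 weeks. Only 2 of 6 bTBI retinas lay below every sham retina at each timepoint. The log2 change was -0.17 at 1 week (-0.35 to 0.0037, limma adjusted p = 0.305) and -0.15 at 5 weeks (-0.27 to -0.033, limma adjusted p = 0.273).

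Irx2, an Iroquois homeobox factor of the developing RGC layer, had the lowest CPM of the 9 factors in every group on average. It had 0.928, 2.15 and 3.20 CPM as lowest, median and highest levels in bTBI retinas at 1 week, against 3.19, 3.999 and 4.21 CPM in sham retinas, and 1.79, 2.05 and 2.79 CPM in bTBI retinas at 5 weeks, against 2.75, 3.27 and 3.41 CPM in sham retinas. At each timepoint 5 of 6 bTBI retinas lay below every sham retina. The lowest value, of bTBI replicate 3 at 1 week, rests on 16 reads, and its exact Poisson interval of 0.530 to 1.51 CPM lies below the lowest sham retina. The log2 change was -0.63 at 1 week (-0.96 to -0.31, limma adjusted p = 0.0193) and -0.39 at 5 weeks (-0.59 to -0.19, limma adjusted p = 0.0348), and neither passed the threshold. Without both bTBI replicates 5 and 6 the adjusted p of Irx2 at 1 week was 0.0662. Since 1 was added to every value before taking logs, such changes are understated for genes as low as Irx2, which averaged 57.0% of sham at 1 week and 69.3% at 5 weeks.

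Klf7, a zinc-finger factor that promotes axon growth in neurons, and Sox4, a SOXC factor of RGC specification, are both expressed outside RGCs as well. Klf7 ranged over 8.51 to 12.5 CPM in bTBI retinas and 9.84 to 13.1 CPM in sham retinas at 1 week, and over 13.03 to 17.1 CPM in bTBI retinas and 15.6 to 18.8 CPM in sham retinas at 5 weeks. Its log2 change was -0.085 at 1 week (-0.31 to 0.14) and -0.16 at 5 weeks (-0.30 to -0.019), with limma adjusted p of 0.769 and 0.357. For Klf7 2 of 6 bTBI retinas lay below every sham retina at 1 week and 4 of 6 at 5 weeks. Sox4 ranged over 5.28 to 6.62 CPM in bTBI retinas and 5.50 to 7.70 CPM in sham retinas at 1 week, with a log2 change of -0.14 (-0.33 to 0.044, limma adjusted p = 0.461). At 5 weeks the ranges were 4.45 to 5.67 CPM in bTBI retinas and 4.21 to 5.86 CPM in sham retinas, and the log2 change of -0.028 (-0.21 to 0.15, limma adjusted p = 0.959) changed sign without single retinas. For Sox4 3 of 6 bTBI retinas lay below every sham retina at 1 week and 0 of 6 at 5 weeks. The intervals allow at 1 week a log2 decrease of up to -0.31 for Klf7 and -0.33 for Sox4, and at 5 weeks of up to -0.30 and -0.21.

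To ask whether a factor responded differently at the later timepoint, the bTBI effect at 5 weeks was compared with that at 1 week by limma in a joint fit of the 24 retinas, restricted to the 14455 genes measured at both timepoints. None of the 9 factors passed the adjusted p of 0.005, none had an unadjusted p under 0.05, and 0.104% of all genes passed. The lowest unadjusted p was 0.161, for Pou4f1 (limma adjusted p = 0.794), whose log2 change at 5 weeks minus that at 1 week was -0.19 (95% interval -0.47 to 0.082). The widest intervals were those of Pou4f3, -0.46 to 0.32, and Irx2, -0.12 to 0.61. Over the 9 factors the difference between timepoints ran between -0.19 and 0.25. With 6 retinas per group, differences between the timepoints within these intervals are not excluded.

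Per kilobase of exon, Pou4f1 was the most abundant of the 9 factors in every group. It averaged 5.78 ± 0.71 CPM per kb in bTBI retinas and 8.17 ± 0.33 CPM per kb in sham retinas at 1 week, and 3.32 ± 0.66 CPM per kb in bTBI retinas and 5.37 ± 0.26 CPM per kb in sham retinas at 5 weeks (SD, n = 6 each). Next in sham retinas at 1 week came Ebf3 (3.61 ± 0.43), Pou4f2 (3.38 ± 0.42), Ebf1 (3.33 ± 0.23) and Pou4f3 (3.26 ± 0.65 CPM per kb), which lay within 1 SD of each other. Isl2 followed with 2.38 ± 0.22 CPM per kb, then Klf7 (1.38 ± 0.16), Sox4 (1.34 ± 0.17) and Irx2 (1.16 ± 0.14 CPM per kb), of which Klf7 and Sox4 differed by less than their spread. At 5 weeks Irx2 was again lowest in sham retinas, with 0.964 ± 0.085 CPM per kb. Levels across the timepoints are set in separate tables that the authors scaled separately.

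The 9 factors were set beside RGC genes that are not transcription factors. All 16 such markers had a negative log2 change at both timepoints. The test called 15 lower at 1 week and 16 at 5 weeks, where 0.985% and 0.823% of all genes were called lower. The median level of the markers was 67.5% of sham at 1 week and 63.6% at 5 weeks. Part of this list was chosen by the study on these samples, so that its direction is not independent evidence. The markers include Rbpms, an RNA-binding protein of nearly all RGCs (70.3% and 63.8% of sham at 1 and 5 weeks), the neurofilament Nefl (58.0% and 59.9%), Sncg, a synuclein (58.6% and 58.8%), Tubb3, a neuronal tubulin (73.0% and 69.2%), Nefm, a neurofilament (61.1% and 56.1%), and Thy1, a surface protein of RGCs (71.0% and 70.1%). At 1 week the members with the largest p were Rbpms, which passed narrowly (limma adjusted p = 0.00483), and Tppp3. Tppp3, at 71.9% of sham, did not pass (limma adjusted p = 0.0538). The median over all genes measured was a log2 change of 0.00 at both timepoints, while that of the 9 factors was -0.48 at 1 week and -0.39 at 5 weeks and that of the 16 markers -0.57 and -0.63.

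Each factor was then divided by the markers of the same retina, as log2 CPM of the factor minus the mean log2 CPM of the 16 markers. On this scale the difference of bTBI minus sham was 0.14 for Pou4f1, 0.10 for Pou4f2 and 0.0073 for Pou4f3 at 1 week, and -0.096, 0.062 and -0.20 at 5 weeks. The bTBI and sham retinas overlapped for these 3 factors at both timepoints, and likewise for Isl2 (-0.18 and 0.018) and Irx2 (-0.25 and 0.086). Ebf3 stood higher relative to the markers in bTBI retinas, by 0.47 at both timepoints, Klf7 by 0.55 and 0.45, and Sox4 by 0.48 and 0.59. All 6 bTBI retinas lay above all 6 sham retinas for Klf7 at 1 week and for Ebf1, Ebf3 and Sox4 at 5 weeks, and Ebf1 stood higher by 0.18 at 1 week and 0.32 at 5 weeks. The markers themselves were lower by 0.65 at 1 week and 0.63 at 5 weeks on this scale, so a gene that stays at its sham level comes out higher by that amount. Since those markers were partly chosen on these retinas, the differences are given as a description with no test.

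**Figure D3:**
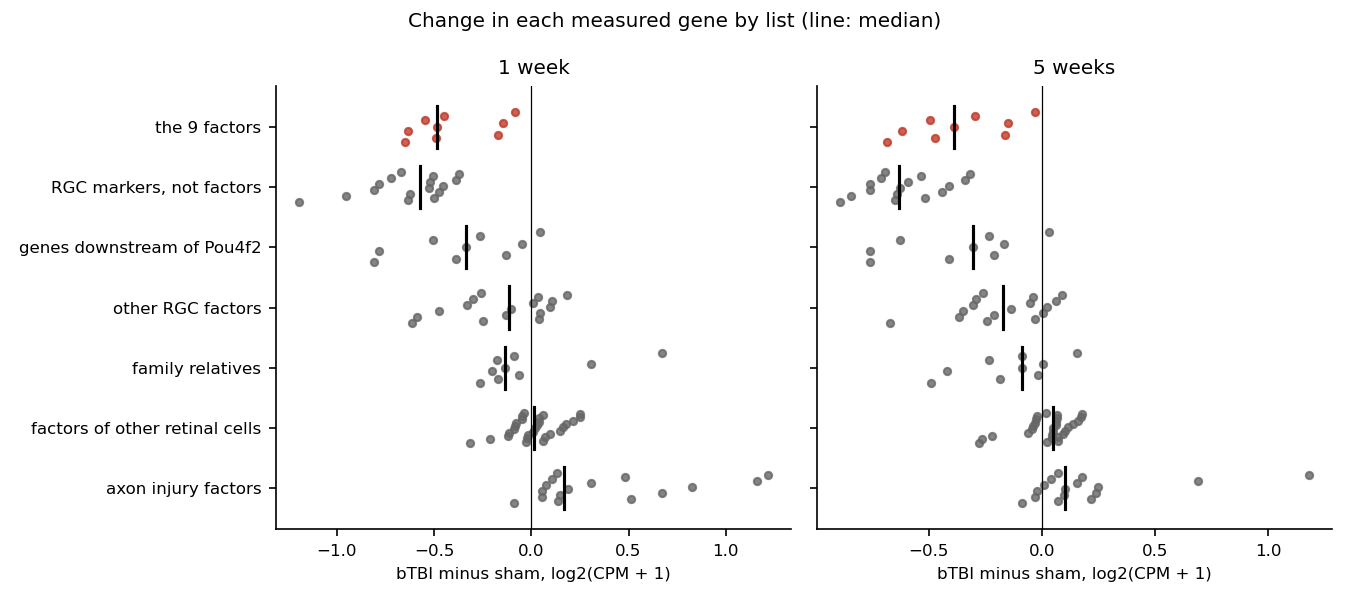
Change of each measured gene as bTBI minus sham on the log2(CPM + 1) scale (horizontal axis) at 1 week (left) and 5 weeks (right), grouped by list, with a vertical line at the median of each list; the 9 factors are in red. The factors and the RGC markers lie mostly left of 0 (medians -0.48 and -0.57 at 1 week), while factors of other retinal cells scatter around 0 (median 0.01 at 1 week and 0.05 at 5 weeks).

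Relatives of the 9 factors in the POU4, ISL, EBF, IRX, SOXC and KLF6/7 families gave no call. Of 11 listed, 9 were measured, Ebf2 and Irx1 being absent from both tables, and none passed the limma test at an adjusted p under 0.005 at either timepoint. At 1 week 2 of the 9, and at 5 weeks 0 of the 9, had an adjusted p under 0.05. Isl1, the partner of Pou4f2 in RGC development that is also expressed in bipolar and amacrine cells, averaged 42.7 ± 4.2 CPM in bTBI retinas and 48.4 ± 1.4 CPM in sham retinas at 1 week (SD, n = 6 each), a log2 change of -0.18 (limma adjusted p = 0.0978). The 2 relatives with an adjusted p under 0.05 were higher in bTBI retinas. Sox11, the SOXC partner of Sox4, averaged 2.50 ± 0.98 CPM in bTBI retinas and 1.12 ± 0.03 CPM in sham retinas (limma adjusted p = 0.0199). Klf6, a KLF factor induced by axon injury, averaged 30.4 ± 3.5 CPM in bTBI retinas and 24.3 ± 1.7 CPM in sham retinas (limma adjusted p = 0.0251). At 5 weeks Sox11 stood at 119% and Klf6 at 94.2% of sham.

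The other Iroquois genes did not pass either, but Irx3 and Irx4 had low values at 5 weeks. Irx3 averaged 0.929 ± 0.26 CPM in bTBI retinas and 1.57 ± 0.30 CPM in sham retinas (59.3% of sham, limma adjusted p = 0.0787), and Irx4 averaged 3.68 ± 1.18 CPM in bTBI retinas and 5.42 ± 0.77 CPM in sham retinas (67.8%, limma adjusted p = 0.0826). At 1 week they stood at 86.5% and 81.2% of sham. Irx5 (93.5% and 81.3% of sham at 1 and 5 weeks), Irx6 (86.8% and 88.0%), Ebf4 (86.5% and 98.9%) and Sox12 (95.7% and 101%) lay closer to sham, with adjusted p from 0.172 to 0.979.

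Of 19 other transcription factors known from subsets of RGCs, 16 were measured, and Atoh7, Dlx1 and Dlx2 were absent. None passed the limma test at 1 week, where 5 of 16 were lower with an adjusted p under 0.05, and 2 of 16 fell at 5 weeks. These were Satb1, a chromatin organizer of direction-selective RGCs, at 81.1% of sham (limma adjusted p = 0.00184), and Tfap2d, an AP-2 factor, at 53.2% of sham (limma adjusted p = 0.00417). The Tfap2d call was lost in 10 and the Satb1 call in 5 of 12 single omissions. At 1 week Tfap2d stood at 64.3% of sham (limma adjusted p = 0.0169) and Satb1 at 80.6% (limma adjusted p = 0.0264). Pou3f1 stood at 101% of sham at 1 week and 96.3% at 5 weeks. Neurod2 stood at 82.1% of sham at 1 week (limma adjusted p = 0.0427) and 101% at 5 weeks. The median log2 change of the list was -0.12 at 1 week and -0.17 at 5 weeks.

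Genes listed as downstream of Pou4f2 in RGC development were split. Of 9 measured, 5 fell at both timepoints (Nefl, Sncg, Olfm1, Stmn2 and Rbpms), with a median log2 change of the 9 of -0.33 at 1 week and -0.30 at 5 weeks. Olfm1, a secreted olfactomedin, stood at 83.4% and 86.4% of sham, and Stmn2, a regulator of microtubules in axons, at 76.6% and 75.1%. Gap43, a protein of growing axons, stood at 96.9% of sham at 1 week and 84.6% at 5 weeks, and Ablim1, an actin-binding protein, at 103% and 102%, and neither passed. Nefl, Sncg, Stmn2 and Rbpms also belong to the markers above. The 1-week calls of Olfm1 and Stmn2 were lost in 11 and 10 of 12 single omissions.

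Transcription factors of other retinal cells were measured as a reference, 28 of 30 listed. None passed the limma test at an adjusted p under 0.005 at either timepoint, and with an adjusted p under 0.05 there were 0 of 28 at 1 week and 1 of 28 at 5 weeks. The exception was Rxrg, a nuclear receptor of cones that is also found in RGCs, at 80.9% of sham at 5 weeks (limma adjusted p = 0.0431) and 79.0% at 1 week (limma adjusted p = 0.0792). Rax, of Müller glia, stood at 119% and 101% of sham at 1 and 5 weeks, and Barhl2, of amacrine cells, at 84.9% and 82.5%. Nrl stood at 98.7% and 104% of sham. The median level of the list was 101% of sham at 1 week and 104% at 5 weeks.

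Among 16 measured factors known to respond to axon injury (Myc was absent), 3 rose at 1 week, namely Stat3, a cytokine signal transducer (181% of sham, limma adjusted p = 0.000192), Atf3, a stress factor of injured neurons (244%, limma adjusted p = 0.000473), and Cebpd, an inflammatory factor (270%, limma adjusted p = 0.000970). Stat3 is also one of the 8 reactive macroglia markers given with the other cell types. At 5 weeks none passed, and 1 of 16, Stat3 at 113% of sham, had a limma adjusted p under 0.05 (0.0217). Atf3 averaged 16.01 ± 4.28 CPM in bTBI retinas and 6.56 ± 1.56 CPM in sham retinas at 1 week, and 9.88 ± 1.68 CPM in bTBI retinas and 8.34 ± 1.30 CPM in sham retinas at 5 weeks. Jun, which acts with Atf3 in injured neurons, stood at 142% of sham at 1 week (limma adjusted p = 0.00983) and 106% at 5 weeks. Klf9 (103% and 98.1%), Fos (103% and 144%), Smad1 (111% and 98.4%) and Atf4 (94.2% and 101%) did not pass.

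Depth, inferred from the steps of the values, was 14301989 to 25158638 reads per retina, and a factor's value rested on 16 to 946 reads. Genes of other cells moved with the groups at 1 week. Microglia markers (7 of 8 measured) summed to 160 to 348 CPM in bTBI retinas and 104 to 157 CPM in sham retinas, and 5 of 7 rose. Reactive macroglia markers (8 of 8) summed to 458 to 1605 CPM in bTBI retinas and 293 to 453 CPM in sham retinas, and 6 of 8 rose. Lens genes (13 of 15) summed to 46.9 to 7932 CPM in bTBI retinas and 10.5 to 760 CPM in sham retinas, highest in bTBI replicates 5 and 6, and oligodendrocyte genes (3 of 7) to 72.7 to 3452 CPM in bTBI retinas, highest in replicate 3, and 64.9 to 74.4 CPM in sham retinas, and none of either list passed. Without bTBI replicates 5 and 6, Pou4f1 still fell by 0.46 on the log2 scale (limma adjusted p = 0.00460), while Ebf1 had a log2 change of -0.47 and an adjusted p of 0.0131. Pou4f2, Pou4f3 and Irx2 were then above an adjusted p of 0.05, with the values given for each. At 5 weeks the lens sums were 7.41 to 94.4 CPM in bTBI retinas and 3.34 to 114 CPM in sham retinas, and no marker of microglia or reactive macroglia passed. Of the reactive macroglia markers, 3 of 8 were higher there with a limma adjusted p under 0.05, and 0 of 8 had a negative log2 change. Their sums were 236 to 287 CPM in bTBI retinas and 222 to 251 CPM in sham retinas. Of 6 microglia markers measured at 5 weeks, 0 had a limma adjusted p under 0.05. Endothelial and pericyte markers (10 of 10 each) gave no call at either timepoint, and none of 6 B cell markers, cells in which Ebf1 is also a defining factor, was listed in either table. At 1 week the pericyte and smooth muscle markers summed to 223 to 302 CPM in bTBI retinas and 191 to 217 CPM in sham retinas. Their smallest p was that of Mcam, at 151% of sham (limma adjusted p = 0.00546). At 5 weeks these sums were 104 to 116 CPM in bTBI retinas and 96.3 to 113 CPM in sham retinas. The endothelial sums at 1 week were 479 to 662 CPM in bTBI retinas and 421 to 515 CPM in sham retinas. The part of the lens, oligodendrocyte, glial and vascular RNA in the changes of the factors was not tested otherwise.

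Over all 24 retinas, those with more of the RGC markers than their group mean also tended to have more of the POU4 factors. The mean log2 CPM of the markers varied more between bTBI retinas (SD 0.23 at 1 week and 0.19 at 5 weeks) than between sham retinas (0.083 and 0.068). The relations were not computed within bTBI or sham retinas alone. For each gene the group mean of log2(CPM + 1) was subtracted, which removes differences between the means of the 4 groups. Differences in spread between the groups remain. In all, 12 relations were computed over the 24 retinas. With the mean of the 16 markers, Pearson's r was 0.74 for Pou4f1 (Spearman's rho 0.49), 0.79 for Pou4f2 (rho 0.61) and 0.76 for Pou4f3 (rho 0.59), with permutation p, from 100000 shuffles within groups and unadjusted, of 0.00061, 5e-05 and 0.00053 for r and of 0.0245, 0.00303 and 0.00625 for rho. Without bTBI replicates 2 and 5 at 1 week, the 2 retinas farthest from the median of the markers, r was 0.70, 0.61 and 0.57. Within the timepoints it was 0.80, 0.86 and 0.87 at 1 week and 0.80, 0.70 and 0.57 at 5 weeks. Ebf1 had r = 0.57 (rho 0.48, permutation p = 0.0202 and 0.0374), 0.54 without those 2 retinas, and 0.46 and 0.71 within the timepoints. For Isl2 (r = 0.41), Irx2 (0.38), Klf7 (0.086), Ebf3 (0.047) and Sox4 (-0.20) the permutation p of r was 0.13 to 0.829. For Ebf3 r was -0.20 within 1 week and 0.51 within 5 weeks. The 2 measures of a retina come from the same library and dissection.

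**Figure D4:**
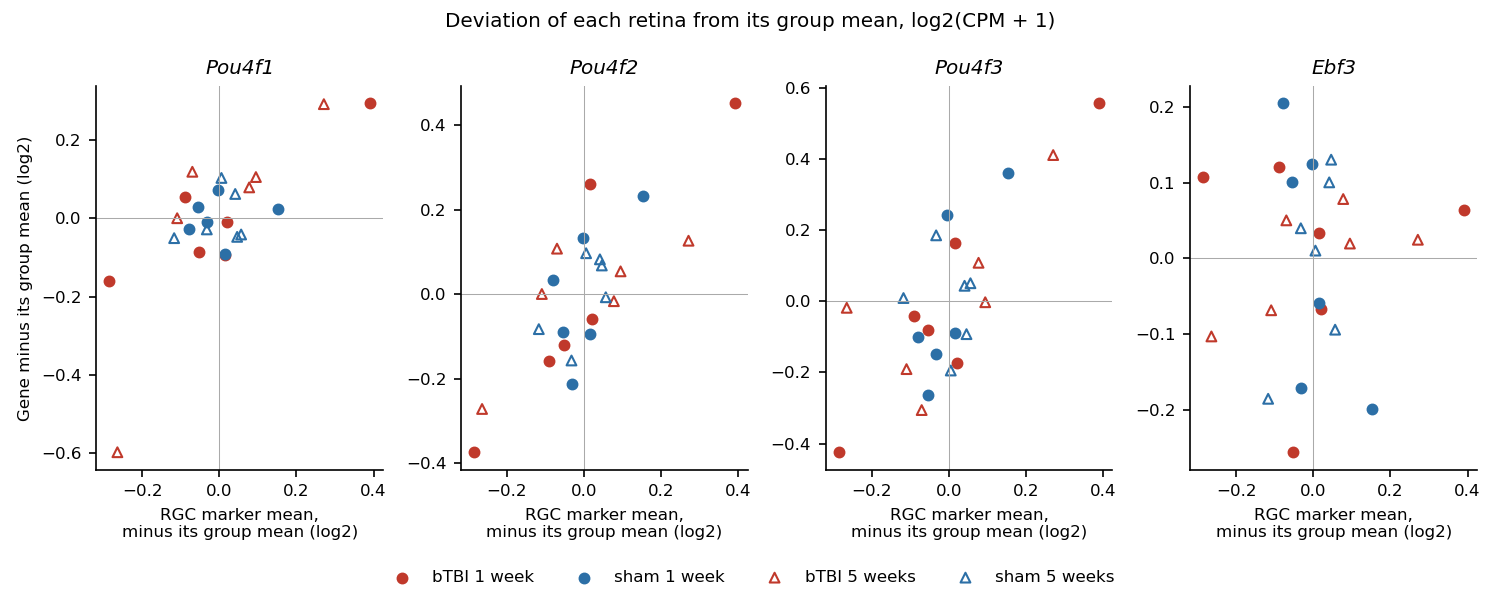
Deviation of each of 24 retinas from its group mean on the log2(CPM + 1) scale, for the mean of 16 RGC markers (horizontal axis) and for Pou4f1, Pou4f2, Pou4f3 and Ebf3 (vertical axes); circles are 1 week, triangles 5 weeks, red bTBI and blue sham. Over all 24 retinas r was 0.74, 0.79 and 0.76 for the POU4 factors and 0.047 for Ebf3, whose r was -0.20 within 1 week and 0.51 within 5 weeks.

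Between themselves, Pou4f1 and Pou4f2 had r = 0.62 (rho 0.56, permutation p = 0.00138 and 0.0083, r = 0.46 without the 2 farthest retinas, bTBI replicate 1 at 5 weeks and bTBI replicate 2 at 1 week). It was 0.66 within 1 week and 0.85 within 5 weeks. Pou4f2 and Pou4f3 had r = 0.65 (rho 0.45, permutation p = 0.00569 and 0.0519), but 0.92 within 1 week and -0.12 within 5 weeks, so that the relation did not hold within the later timepoint. Pou4f1 and Pou4f3 had r = 0.37 (rho 0.21, permutation p = 0.126 and 0.347), with 0.72 within 1 week and 0.18 within 5 weeks. Some retinas were at the end of their group for many factors: at 5 weeks bTBI replicate 1 was the lowest bTBI retina for 8 of 9 factors and replicate 4 the highest for 6 of 9, and at 1 week bTBI replicate 2 was the highest for 5 of 9. By Dixon's ratio of gap to range, 0 of 36 sets, each a factor in a group, held an outlying retina.

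By the same centred values, the 3 genes of 14348 compared whose pattern over the 24 retinas was most like that of a factor were found by Pearson's r, as a description. For Pou4f1 these were Trarg1 (r = 0.89), Nrn1 (0.83), one of the 16 RGC markers, and Sept3 (0.80). For Pou4f2 they included Rimkla (0.90) and Scn1a (0.84), a sodium channel of neurons, and for Pou4f3 they were Rgs4 (0.88), Gabarapl1 (0.87) and Cplx1 (0.86). Isl2 was followed most closely by Basp1 (0.73), Ebf1 by Negr1, Pcdh10 (0.83 each) and Fgf12 (0.82), Ebf3 by Camta1 (0.90), St8sia3 (0.87) and Gucy1a1 (0.85), Irx2 by Ube2v2 (0.80), Klf7 by Ppm1e (0.81) and Scn3a (0.78), and Sox4 by Tmem43 (0.69) and Sox2 (0.69). No factor had another of the 9 among its 3 most alike genes.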

How the data were processed

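RNA was sequenced from 24 whole retinas. Per the labels and the methods, the authors made stranded polyA libraries, used STAR for mapping (GRCm38), featureCounts for gene counts and edgeR for the comparison, at an FDR under 0.005. The deposited signal values (CPM) are counts per gene after the authors' scaling to an effective library size, in 1 table per timepoint, filtered for low counts. Each value is a whole multiple of 1 step per retina to within 0.01 of that step, and reads were inferred as value over step, which could not be checked against stated totals. Intervals from reads cover counting error only.

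Groups were compared on log2(CPM + 1) by limma 3.58.1, run under R 4.3.3 with statmod 1.5.0 and a variance prior with trend, with adjustment over all genes of the table and a threshold of 0.005. Permutations used numpy 2.4.6. The labels name separate retinas but no litters, so the p-values of limma set a group difference against the spread between these retinas, moderated by the variance prior. Members and lists were chosen with earlier results of these data known. All 9 factors and every measured relative are named, and of other lists up to 4 genes with the smallest and 2 with the largest p, but some genes this rule names are not reported here. Of the IDs, 14907 and 15902 matched a symbol. Listed count tests were left out because the inferred reads could not be checked. The procedure was tested on simulated data. Alternatives were other scalings, filter, priors, pseudocount (0.1), threshold (0.05), a replicate block, a joint fit and the omission of retinas.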

Additional observations from a re-analysis of the deposited data

How the results depend on the processing

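All 9 factors kept a negative log2 change at both timepoints in every setting run, except Sox4 at 5 weeks, which ran from -0.077 to 0.0032 over single omissions. The number of factors called at 1 week was 2, and over single omissions it ran from 1 to 5, the highest without bTBI replicate 2. It was 1 with a prior without trend, 1 with the replicate block (the call of Ebf1 was lost in both, at adjusted p of 0.00596 and 0.00651), 1 without both bTBI replicates 5 and 6, 5 with all 24 retinas in a single fit (Pou4f1, Pou4f2, Isl2, Ebf1 and Irx2) and 6 at a threshold of 0.05. Pou4f1 was called in each of these. At 5 weeks the number was 3, over single omissions 2 to 3, 1 with a prior without trend (Pou4f2), 1 in the single fit (Pou4f1), 6 at a threshold of 0.05 and 3 with the replicate block. The difference between timepoints gave 0 in every setting, and its uncalled values crossed 0 over single omissions for Pou4f2 (-0.083 to 0.082), Pou4f3 (-0.16 to 0.040) and Ebf3 (-0.030 to 0.061). The causes were not tested, beyond fewer retinas or genes in the fit. Over all genes the calls numbered 336 at 1 week, with 189 to 486 over single omissions (204 without bTBI replicate 5, 217 without bTBI replicate 6, and 189, 206 and 204 without sham replicates 2, 3 and 5), 112 without both bTBI replicates 5 and 6 and 685 in the single fit. At 5 weeks they numbered 133, with 88 to 163 over single omissions (88 without sham replicate 2), 56 with a prior without trend and 75 in the single fit. For the difference they numbered 15, with 9 to 111 over single omissions, the highest without bTBI replicate 2 of 1 week. At a threshold of 0.05 they numbered 907, 326 and 111.

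The replicate numbers are not pairs by design, and same-numbered retinas had correlations of deviations of -0.25 to 0.54 at 1 week and -0.11 to 0.15 at 5 weeks. With the replicate block 293 genes were called at 1 week and 134 at 5 weeks. The listed tests on recovered reads (a quasi-likelihood test and a second count test) were not run. Depth limits Irx2, Isl2 and Pou4f3 most, whose values rest on as few as 16, 32 and 27 reads in a retina.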
